A study of Mus musculus with 4 samples.

Results

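The genes described here make cholesterol, carry it or other lipids between membranes, or form oxysterols, the ligands of the receptor that was knocked down. Of 41 such genes chosen by symbol, 39 have a row among the 13658 genes of the authors' deposited comparison, and 37 of these have an adjusted p-value. They fall into 4 steps: synthesis through mevalonate to cholesterol, uptake with its regulators, transport inside the cell, and the enzymes that form oxysterols. RNA was polyadenylated RNA of mouse morulae of wild-type genotype, the embryo just before the blastocyst forms, in 4 samples, 2 per group. Fertilized eggs received 4 to 5 pL of siRNA at 100 µM at the 1-cell stage, either a pool against Nr1h2 (siNr1h2) or a non-targeting control (siNT), and were then grown to morulae in M16 medium. Neither the number of embryos pooled in a sample nor separate injection sessions for the replicates are given in the labels. Whether the p-values cover spread between sessions is unknown, and some of the sample-to-sample spread behind them may be technical. The method lowers a transcript for a time and deletes nothing: Nr1h2 itself was 5.03 times lower (95% interval 3.89 to 6.50) in the authors' deposited table. In bulk RNA, fewer cells of one type and less RNA per cell cannot be told apart.

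Nr1h2 encodes LXRβ, a nuclear receptor that binds oxysterols and switches on genes that move cholesterol out of cells and genes that make fatty acids. Another control runs beside it. When membrane sterol is low, SCAP escorts SREBP2 from the endoplasmic reticulum to the Golgi, where SREBP2 is cut and freed to activate the synthesis and uptake genes. When sterol is high, INSIG proteins hold SCAP back. Oxysterols act on both controls, since they bind LXR and also INSIG.

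All 10 genes listed for the morula and early blastocyst had a row. Among them were Pou5f1 (mean normalized count 680.0) and Nanog (2181) in the authors' deposited table. Not all mark this stage alone, since Zp3 is an egg coat gene and Dppa3 RNA is also maternal. The mean normalized count is the authors' average over all samples of counts divided by size factors. Of these 10, 6 lay above 0 and 4 below, and 1 passed the test, the trophectoderm keratin gene Krt8, lower at a log2 fold change of -0.50 ± 0.14 (SE; adjusted p = 0.0211) in the authors' deposited table. Unadjusted p-values under 0.05 were also seen for Pou5f1 (0.43 ± 0.15, adjusted p = 0.117), Zp3 (-0.73 ± 0.32, adjusted p = 0.276) and Dppa3 (-0.26 ± 0.11, adjusted p = 0.271), while Nanog stood at 0.06 ± 0.14, in the authors' deposited table. The 1 gene that passed is 10% of the list, against 1.98% of all genes (Wald test of DESeq2). An unadjusted p under 0.05 was reached by 4 of the 10 (40%), against 13.3% of all genes. Whether these shares differ was not tested. Of 10 cumulus and granulosa cell markers 2 had a row, Foxl2 at a mean of 1.94 and Cyp19a1 at 2.89, and none of 4 sperm markers had one in the authors' deposited table. Of 6 blood and immune markers 2 had a row, Cd74 (mean 327.6) and the globin gene Hba-a1 (24.6), in the authors' deposited table. Of 4 fibroblast markers 2 did, Pdgfra at 156 and Col1a1 at 2.72, in the authors' deposited table. Pdgfra is also a primitive endoderm gene, so it does not set fibroblasts apart here. Cd74 stood at a log2 fold change of 0.42 ± 0.19 (SE; adjusted p = 0.292), and no marker of these other cell types passed the test. The part of either kind of marker in the results was not tested.

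Of the 37 genes with an adjusted p, 1 passed the test, and it was an apolipoprotein gene. Apoc1 was 1.57 times higher in siNr1h2 than in siNT morulae (95% interval 1.21 to 2.05; Wald test of DESeq2, Benjamini-Hochberg adjusted p = 0.0410) in the authors' deposited table. At the threshold of 0.05 the other 36 did not pass. That is 2.70% of the 37, against 1.98% of all 12069 genes with an adjusted p (239 genes), so the share lies near the background. For higher genes alone the background was 0.456%, or 55 genes, and for lower genes 1.52%, or 184 genes (82 higher and 142 lower when centred on genes with means of at least 500, and 36 and 441 when centred on ribosomal protein genes). An unadjusted p under 0.05 was reached by 7 of the 37 (18.9%), 5 above and 2 below 0, against 13.3% of all genes. The median log2 fold change of the 37 was -0.02, and that of all genes 0.00.

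**Figure D1:**
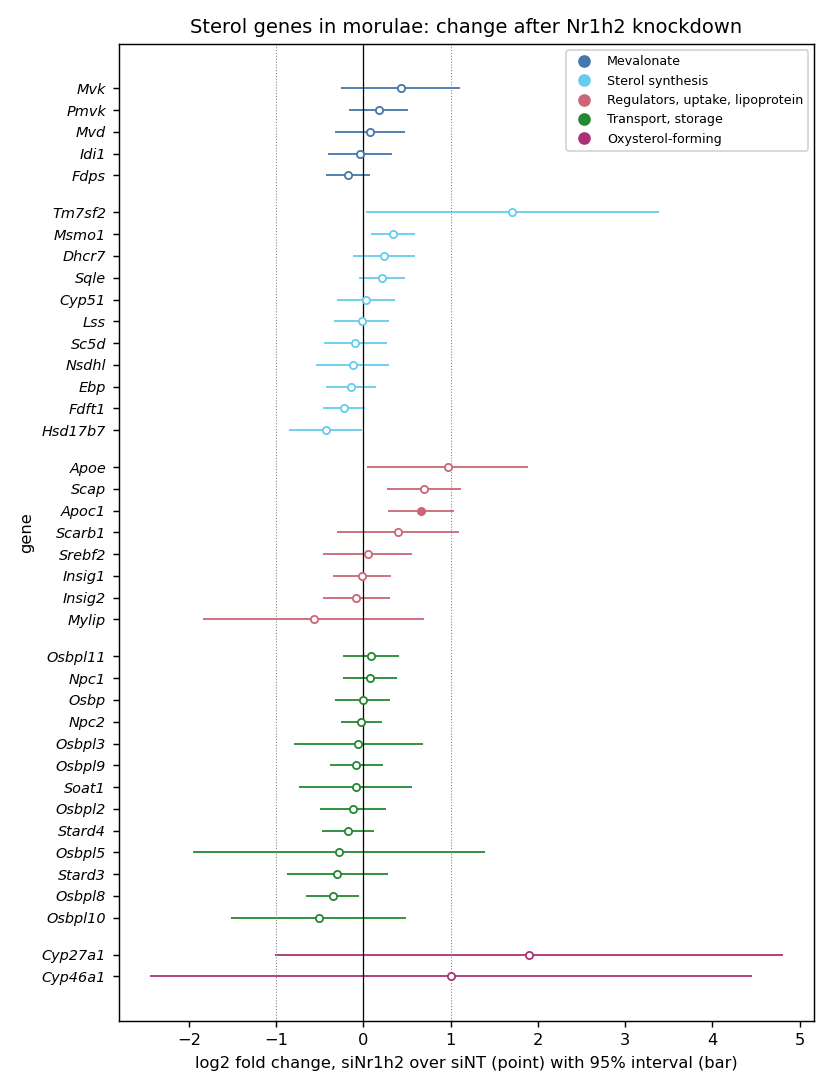
Deposited log2 fold change (x axis, siNr1h2 over siNT) of each of 39 sterol genes (y axis), grouped by step, with bars for the 95% interval; the filled point has an adjusted p under 0.05. Dotted lines mark a change of 2 times in either direction. The filled point is Apoc1 at 0.66, and most synthesis and transport genes lie between the dotted lines.

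How much change could have gone unseen differed from gene to gene. For 28 of the 37 the 95% interval lay inside a change of 2 times in both directions (75.7%, against 68.0% of all genes). Among genes with means of at least 50 the shares were 84.8% of the sterol genes and 89.0% of all genes. The 9 others include Apoc1, whose interval runs past 2 times upward, Scap, Apoe, and genes of low count such as Tm7sf2, Mylip and Osbpl5. With the smallest Wald statistic that was called, 3.30, a gene with the precision of Npc2 would have been called at a change of 1.31 times, but one with that of Osbpl5 only at 7.07 times. Most sterol genes sat on the usual curve of precision against count. Apoe stood far off it: its standard error of 0.47 was 2.21 times the median of the genes nearest in mean count, higher in that ratio than 99.5% of all genes, in the authors' deposited table. Which of the samples sets that spread cannot be read from a table without values per sample.

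**Figure D2:**
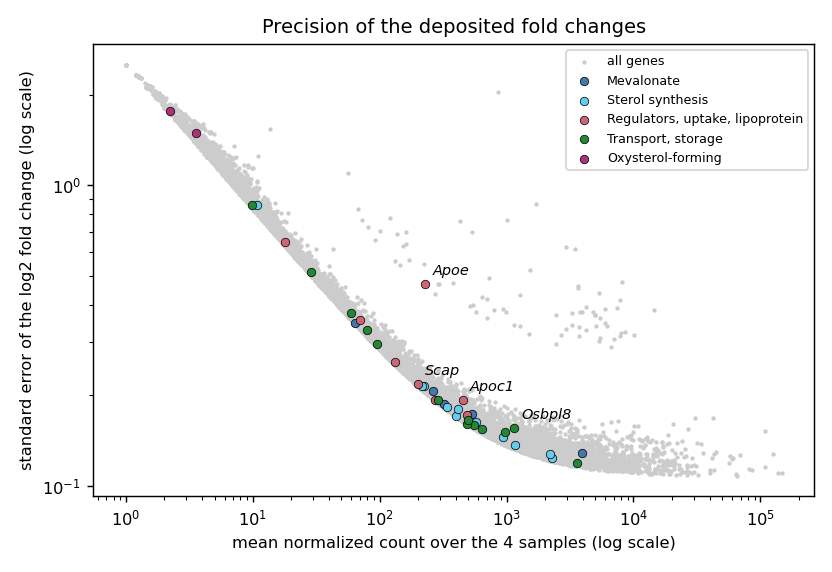
Standard error of the deposited log2 fold change (y axis, log scale) against the mean normalized count over the 4 samples (x axis, log scale), for all genes in grey and sterol genes in colour. Apoe, at a mean of 229 and a standard error of 0.47, lies well above the band that holds the other sterol genes.

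Levels differed widely between the genes. Divided by the length of the longest annotated transcript, the mean normalized count was highest for Fdps (1333 per kb), followed by Npc2 (1090), Apoc1 (846), Msmo1 (743) and Fdft1 (621). The same 5 genes came first when the median transcript length was used. At the other end stood Mylip (5.91 per kb), Tm7sf2 (3.49), Osbpl5 (2.46), Cyp27a1 (1.90) and Cyp46a1 (1.06). Of 16 synthesis genes 14 lay above the median of all genes per kb, as did 9 of 13 transport genes, while both oxysterol-forming enzymes lay near the bottom of the table. The order depends on the length used, since Osbp stood at place 17 with the longest transcript and at place 28 with the median length, and neighbours in it could not be compared because the table gives no spread for a level.

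**Figure D3:**
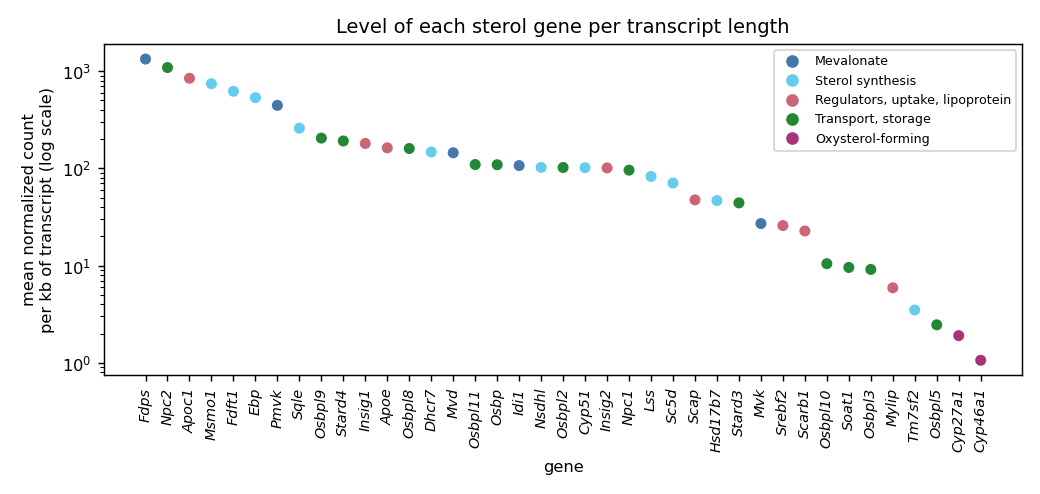
Mean normalized count over the 4 samples per kb of the longest annotated transcript (y axis, log scale) for 39 sterol genes in descending order (x axis), coloured by step. Values run from 1333 for Fdps to 1.06 for Cyp46a1, with both oxysterol-forming enzymes last.

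None of the 5 mevalonate genes passed, and 3 lay above 0 and 2 below (2 and 3 when centred on ribosomal protein genes). These enzymes turn mevalonate into the isoprenoid units from which sterols are built. Mvk, mevalonate kinase, had a mean normalized count of 64.4 and a log2 fold change of 0.43 ± 0.35 (SE) in the authors' deposited table. Pmvk, phosphomevalonate kinase, stood at 0.18 ± 0.17 (mean 531) and Mvd, the decarboxylase, at 0.07 ± 0.21 (mean 265) in the authors' deposited table. The sign of Mvd turned to -0.03 when fold changes were centred on ribosomal protein genes or when a trend with length and GC content was removed. Idi1, the isomerase that makes the reactive isoprenoid unit, stood at -0.04 ± 0.19 (mean 324), and Fdps, which joins units into farnesyl diphosphate, at -0.18 ± 0.13 (mean 3937) in the authors' deposited table. Fdps is the most precise of these, and its interval of 0.74 to 1.05 times leaves room for little change upward. Hmgcs1, the synthase ahead of mevalonate, has no row under its symbol or a synonym and was not analysed here.

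None of the 11 genes from squalene to cholesterol passed; 5 lay above 0 and 6 below, with a median log2 fold change of -0.02 (0.02 when centred on genes with means of at least 500; -0.13, with 4 above and 7 below, when centred on ribosomal protein genes). The members nearest the threshold pointed in opposite directions. Msmo1, which removes methyl groups from the sterol ring, had a log2 fold change of 0.34 ± 0.13 (p = 0.00772, adjusted p = 0.162) in the authors' deposited table. Its mean of 2206 and that fold imply levels of 1947 in siNT and 2465 in siNr1h2 morulae. Hsd17b7, the ketoreductase of the same demethylation cycle, stood at -0.43 ± 0.21 (p = 0.0426, adjusted p = 0.359) in the authors' deposited table, which implies 247 in siNT and 183 in siNr1h2. Nsdhl, the dehydrogenase of that cycle, stood between them at -0.12 ± 0.21 (mean 222) in the authors' deposited table. The values of these 3 enzymes of one cycle thus lay on both sides of 0.

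At the head of this branch, Fdft1, squalene synthase, stood at -0.23 ± 0.12 (mean 2297, adjusted p = 0.421) and Sqle, squalene epoxidase and a slow step of the pathway, at 0.21 ± 0.14 (mean 1159, adjusted p = 0.519) in the authors' deposited table. Lss, which closes the sterol rings, was at -0.02 ± 0.16 (mean 578) and Cyp51, the lanosterol demethylase, at 0.03 ± 0.17 (mean 399.9) in the authors' deposited table. Their fold intervals, 0.79 to 1.23 for Lss and 0.81 to 1.29 for Cyp51, are narrow. Tm7sf2, a sterol reductase of the endoplasmic reticulum, had the largest value of all synthesis genes, 1.70 ± 0.86, from a mean count of 10.8 in the authors' deposited table (p = 0.0467, adjusted p = 0.366). Its fold interval runs from 1.02 to 10.4 times, so the value says little about its size. Lbr, the nuclear envelope protein with the same reductase activity, was far more abundant (mean 3667) and stood at 0.02 ± 0.13 in the authors' deposited table. The last enzymes also scattered around 0 in the authors' deposited table, with Ebp, the sterol isomerase, at -0.15 ± 0.15 (mean 932), Sc5d, the desaturase, at -0.09 ± 0.18 (mean 338) and Dhcr7, the final reductase of one branch, at 0.24 ± 0.18 (mean 415).

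Promoters of Msmo1 and Hsd17b7 are shown because these enzymes had the smallest p-values of the synthesis genes above and below 0 at means over 50, yet carry the same element. NF-Y, a factor that works beside SREBP at sterol genes, binds the box CCAAT. Capitals mark CCAAT or, on the other strand, ATTGG; sequences are RefSeq windows of build GRCm38.p6, read 5′ to 3′ from 250 bases before to 50 bases after the start site, at chr8:64733529-64733828 (minus strand) for Msmo1 and chr1:169969156-169969455 (minus strand) for Hsd17b7.
Msmo1: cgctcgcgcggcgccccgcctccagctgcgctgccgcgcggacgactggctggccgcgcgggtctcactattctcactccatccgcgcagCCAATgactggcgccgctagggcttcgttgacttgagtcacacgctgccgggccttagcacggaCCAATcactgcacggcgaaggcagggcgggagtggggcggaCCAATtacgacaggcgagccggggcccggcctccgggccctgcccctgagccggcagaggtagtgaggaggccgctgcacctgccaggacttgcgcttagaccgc
Hsd17b7: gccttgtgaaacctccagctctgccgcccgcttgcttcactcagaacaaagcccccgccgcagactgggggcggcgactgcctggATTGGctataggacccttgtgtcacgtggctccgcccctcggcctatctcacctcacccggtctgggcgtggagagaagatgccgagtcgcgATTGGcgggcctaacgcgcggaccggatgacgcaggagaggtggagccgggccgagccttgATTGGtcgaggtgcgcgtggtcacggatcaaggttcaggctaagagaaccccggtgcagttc
Each window holds 3 boxes, on the coding strand in Msmo1 and on the opposite strand in Hsd17b7.

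RefSeq windows were matched for 31 of the 39 genes. None was matched for Apoc1, the called gene, or for Fdps, Fdft1, Sqle, Scarb1, Npc1, Stard4 and Osbpl10, so these were not searched. CCAAT, on either strand, was found in a window of all 13 matched synthesis genes, of 15 of 18 other sterol genes, and of 41.1% of all 27025 genes with a window. Counted by window, it was 81.2% for synthesis genes, 61.5% for the other sterol genes and 37.4% for all. Among genes with a row in the comparison it was in 38.2% of windows and 43.4% of genes. An exact SREBP site, written TCACNCCAC, was in no window of a synthesis gene and in 1 window of the others, that of Stard3, against 1.24% of all windows. The LXR element DR4, a direct repeat of receptor half-sites, was in none of the 42 windows and in 0.0761% of all windows. These are exact matches of letters in short windows, not sites of binding. Variants of these letters and elements outside the windows were not counted. The synthesis genes and the other sterol genes both held the box in a larger share of windows than all genes did. That is a description without a test, and the fold changes of the synthesis genes lay on both sides of 0.

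Of the 8 genes of sterol regulation, uptake and lipoproteins 1 passed, upward. Of all genes 1.98% passed in either direction and 0.456% upward, and 1 gene is too few to set against these shares. Of the 8, 5 lay above 0 and 3 below, and the median log2 fold change was 0.22. Centred on ribosomal protein genes, 4 lay on each side and the median was 0.11; centred on genes with means of at least 500, 6 lay above and 2 below with a median of 0.26. The 3 largest of the genes with means over 50 belong here: Apoe, Scap and Apoc1. Scap, the sterol sensor that escorts SREBP2, had a log2 fold change of 0.69 ± 0.22 (p = 0.00143, adjusted p = 0.0614) in the authors' deposited table, just short of the threshold. Its mean of 200.4 implies 153 in siNT and 248 in siNr1h2 morulae, a ratio of 1.62 (95% interval 1.20 to 2.18). It passed when fold changes were centred on genes with means of at least 500 (adjusted p = 0.0453), and its adjusted p was 0.104 with centring on ribosomal protein genes and 0.184 with a length and GC trend removed, where its log2 fold change was 0.58. Its partners stood near 0, with Srebf2, the transcription factor it carries, at 0.05 ± 0.26 (mean 131), Insig1 at -0.01 ± 0.17 (mean 487) and Insig2 at -0.08 ± 0.19 (mean 273) in the authors' deposited table. Insig1 is itself a gene that SREBP activates, and its fold interval ran from 0.78 to 1.25 times. Whether Scap differed from its partners was not tested, because that needs values per sample.

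The Scap window, at chr9:110333038-110333337 (plus strand, GRCm38.p6, the first of 2 RefSeq windows), is shown for contrast, because it holds none of the 3 motifs and so has no capitals.
Scap: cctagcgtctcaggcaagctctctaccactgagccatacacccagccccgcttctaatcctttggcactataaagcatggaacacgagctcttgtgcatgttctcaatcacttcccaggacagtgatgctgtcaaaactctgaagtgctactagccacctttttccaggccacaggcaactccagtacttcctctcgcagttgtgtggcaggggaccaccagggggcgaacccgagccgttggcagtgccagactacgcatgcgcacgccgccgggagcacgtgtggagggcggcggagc

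Scarb1, the receptor that takes up sterol from high-density lipoprotein, had a log2 fold change of 0.39 ± 0.36 (mean 70.2) in the authors' deposited table. Mylip, an LXR target in other cells that marks lipoprotein receptors for breakdown, was at -0.57 ± 0.65 from a mean of 18.1 in the authors' deposited table. Its interval of 0.28 to 1.62 times holds both no change and a fall of more than 2 times.

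Apoc1 and Apoe encode lipoprotein components and are neighbours on chromosome 7. Both are LXR targets in macrophages, where LXR raises them. Here Apoc1 was the sterol gene that passed the test, with a higher value after knockdown of Nr1h2. Its mean of 450.1 in the authors' deposited table implies 349.6 in siNT and 551 in siNr1h2 morulae. Its adjusted p of 0.0410 lies close to the threshold and rose to 0.0807 with centring on ribosomal protein genes and to 0.0713 with a trend of length and GC content removed. Apoe had the larger value, 0.96 ± 0.47 (p = 0.0395, adjusted p = 0.348) in the authors' deposited table, which implies 155 in siNT and 303 in siNr1h2 (1.95 times, 95% interval 1.03 to 3.69). Its Wald statistic was 2.06. The median standard error of genes of like count would give 4.55, but that sets aside the wide standard error of Apoe itself. It is therefore no test of Apoe.

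**Figure D4:**
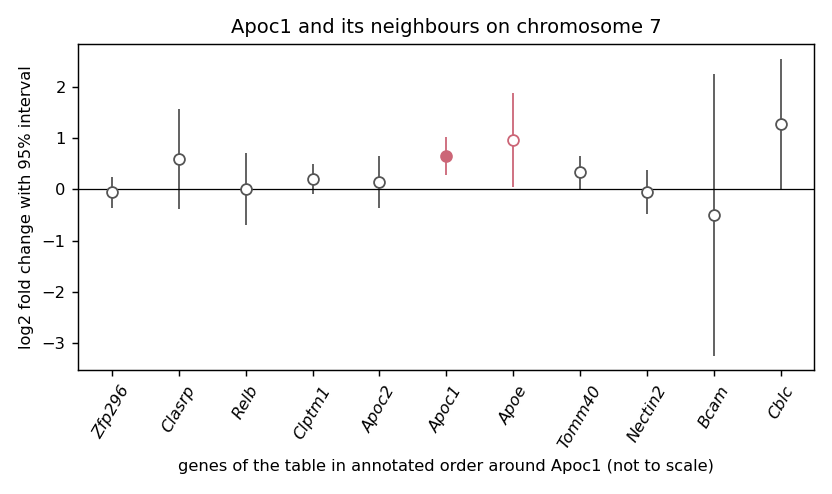
Deposited log2 fold change with a 95% interval (y axis) of Apoc1 and the 5 genes of the table on each side of it in the RefSeq order of build GRCm38.p6 on chromosome 7 (x axis, not to scale). Apoc1, filled, has an adjusted p under 0.05; Apoe beside it has a higher value and a wider bar, and the 10 neighbours run from -0.50 to 1.27.

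Of the 10 genes around Apoc1, 9 had an adjusted p and none passed (Wald test of DESeq2; 2 had an unadjusted p under 0.05, a level that 13.3% of all genes reached). On one side, Apoc2, another apolipoprotein gene, stood at 0.14 ± 0.26 and Clptm1 at 0.21 ± 0.15 in the authors' deposited table. On the other side, beyond Apoe, Tomm40, a mitochondrial import channel gene, stood at 0.33 ± 0.16 (p = 0.0400, adjusted p = 0.349) and Nectin2, an adhesion molecule gene, at -0.05 ± 0.22 in the authors' deposited table. Apoc1, Apoe and Tomm40, which lie side by side, had the intervals that lay wholly above 0. The library kit does not record strand. Whether reads from any overlapping transcripts of this crowded locus were counted for the wrong gene was not tested.

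None of the 13 genes of transport and storage passed, 2 lay above 0 and 11 below (84.6% below, against 49.4% of all genes), and the median log2 fold change was -0.09. The count moves with the scaling, with 9 below 0 when fold changes are centred on genes with means of at least 500 and 13 when centred on ribosomal protein genes, a centring that moves the median of all genes to -0.10. Npc2 and Npc1 pass cholesterol out of the lysosome, Npc2 in the lumen and Npc1 in the membrane. Npc2 was the most precise gene of the whole set, at -0.02 ± 0.12 (mean 3595, interval 0.84 to 1.16 times), and Npc1 stood at 0.07 ± 0.16 (mean 552) in the authors' deposited table. Stard4, a soluble sterol carrier of the cytosol and an SREBP target, stood at -0.18 ± 0.15 (mean 976, adjusted p = 0.669) in the authors' deposited table. Soat1, which esterifies cholesterol for storage, stood at -0.09 ± 0.33 (mean 80.0) in the authors' deposited table.

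Stard3, which tethers late endosomes to the endoplasmic reticulum, had a log2 fold change of -0.30 ± 0.30 (mean 95.9) in the authors' deposited table. Its window, at chr11:98358118-98358417 (plus strand, GRCm38.p6), is shown because it alone of the matched windows holds the SREBP letters. Capitals mark them and, nearer the start site, a CCAAT box on the opposite strand.
Stard3: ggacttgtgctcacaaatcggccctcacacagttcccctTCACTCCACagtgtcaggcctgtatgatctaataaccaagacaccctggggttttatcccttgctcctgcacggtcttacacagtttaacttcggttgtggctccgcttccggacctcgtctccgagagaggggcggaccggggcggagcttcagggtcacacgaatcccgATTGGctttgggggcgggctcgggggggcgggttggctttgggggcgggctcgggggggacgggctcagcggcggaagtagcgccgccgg

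The oxysterol-binding protein family moves sterol or other lipids between membranes at contact sites, often in exchange for phosphoinositide lipids. None of its 8 members passed, and 7 lay below 0 (6 or 8 under those centrings). Osbpl8, which ties the endoplasmic reticulum to the plasma membrane, was nearest to the threshold at -0.35 ± 0.16 (p = 0.0239, adjusted p = 0.283) in the authors' deposited table, and its mean of 1154 implies 1293 in siNT and 1014 in siNr1h2. Osbpl5, its partner at the same contacts, stood at -0.28 ± 0.86 from a mean of 9.82 in the authors' deposited table, too imprecise to compare. Osbp, the founding member and an oxysterol binder, was at -0.01 ± 0.16 (mean 489) in the authors' deposited table. The others were Osbpl2 at -0.11 ± 0.19 (mean 286), Osbpl3 at -0.06 ± 0.37 (mean 59.2), Osbpl9 at -0.08 ± 0.15 (mean 642), Osbpl10 at -0.51 ± 0.51 (mean 28.9) and Osbpl11 at 0.09 ± 0.16 (mean 495) in the authors' deposited table. Osbpl11 was the single member above 0, and it too lay below 0 when centred on ribosomal protein genes. The abundant members had narrow fold intervals, 0.80 to 1.24 for Osbp, 0.77 to 1.17 for Osbpl9 and 0.85 to 1.33 for Osbpl11.

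**Figure D5:**
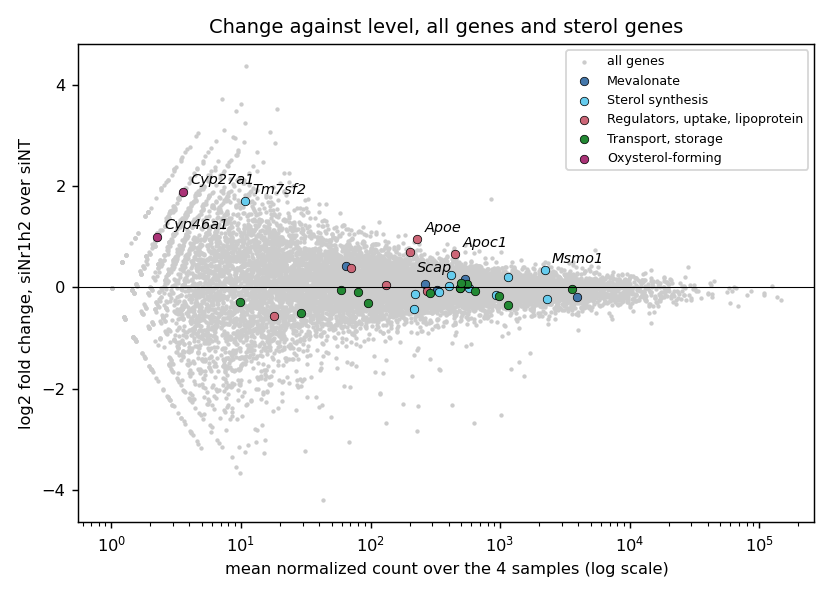
Deposited log2 fold change (y axis, siNr1h2 over siNT) against mean normalized count over the 4 samples (x axis, log scale) for all genes in grey and 39 sterol genes in colour. Most sterol genes lie in the dense band around 0; Apoc1, Scap and Apoe lie at its upper edge at means between 200.4 and 450.1, and Cyp27a1, Cyp46a1 and Tm7sf2 lie where counts are low and the cloud is wide.

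Neither oxysterol-forming enzyme with a row had enough counts for an adjusted p. Cyp27a1, the mitochondrial enzyme that makes a side-chain oxysterol, had a mean normalized count of 3.60 and a log2 fold change of 1.90 ± 1.48 (p = 0.201) in the authors' deposited table. Cyp46a1, known as the brain enzyme of cholesterol turnover, had a mean of 2.25 and stood at 1.01 ± 1.76 (p = 0.567) in the authors' deposited table. The fold intervals, 0.50 to 28.0 and 0.18 to 21.9 times, allow both a rise and a fall. Genes without an adjusted p had means of less than 8, so at this depth a change of these enzymes was not detectable. Ch25h, the endoplasmic reticulum hydroxylase, has no row under its symbol or a synonym and was not analysed here.

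Other genes of sterol handling, listed by function, were counted in the same way. Of 71 symbols 62 had a row and 60 an adjusted p; 2 passed (3.33%, against 1.98% of all genes), both downward. They were Abca1, the pump that exports cholesterol, at -1.06 ± 0.27 (adjusted p = 0.00954), and Scd1, the desaturase of fatty acid synthesis, at -0.57 ± 0.13 (adjusted p = 0.00196) in the authors' deposited table. Both are known LXR targets, and Apoc1 is one in macrophages. They were lower where Apoc1 was higher, and control of these genes by LXR in morulae was not tested. Of the 6 LXR targets of fatty acid synthesis 1 passed, Scd1, and the list had 4 values below 0 and 2 above. Srebf1, the lipogenic SREBP gene, stood at -0.68 ± 0.24 (adjusted p = 0.115) in the authors' deposited table. Other members of the list, named here after their values were seen, were Lpcat3, a phospholipid remodelling enzyme gene, at 0.33 ± 0.13 (adjusted p = 0.184), Mlxipl at 0.63 ± 0.47, Fasn at -0.05 ± 0.16 and Acaca at -0.13 ± 0.22 in the authors' deposited table. The values of this list lay on both sides of 0, but those above 0 did not pass. In the efflux and lipoprotein list 1 of 8 passed, Abca1, and Abca7 had the next smallest p at 0.62 ± 0.47 in the authors' deposited table.

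None of 6 further synthesis genes passed, and Ggps1, which makes the isoprenoid for protein anchors, stood at -0.22 ± 0.14 (adjusted p = 0.523) with Dhdds, of dolichol synthesis, at -0.19 ± 0.21 in the authors' deposited table. None of 10 further regulators passed, among them Mbtps2, the protease that frees SREBP within the membrane, at -0.26 ± 0.17 and Nfyb, an NF-Y subunit, at -0.21 ± 0.14 in the authors' deposited table. Of 8 further uptake genes none passed, with the endocytic receptor genes Lrp1 at 1.37 ± 0.48 (adjusted p = 0.119, mean 34.3) and Lrp2 at -0.29 ± 0.11 (adjusted p = 0.200, mean 4627) in the authors' deposited table. These receptors pointed in opposite directions, and Lrp2, also called megalin, had by far the higher count. None of 15 further transport genes passed, where the contact-site sterol carrier gene Gramd1c stood at -1.78 ± 0.76 (adjusted p = 0.266, mean 14.2) and Tspo, a mitochondrial membrane protein gene, at 0.68 ± 0.40 in the authors' deposited table. Of 8 further oxysterol genes 7 had an adjusted p and none passed. Hsd3b7, of bile acid synthesis from oxysterols, stood at 1.29 ± 0.53 (adjusted p = 0.227, mean 27.9) and the oxysterol hydroxylase gene Cyp39a1, with no adjusted p, at -1.07 ± 1.09 (mean 5.95) in the authors' deposited table.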

How the data were processed

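Polyadenylated RNA of 4 samples of morulae was made into full-length cDNA (SMART-Seq v4) and Nextera XT libraries, per the labels' protocols. Per the submitters' processing notes, the tools included DESeq2, edgeR, RSEM, STAR, Cufflinks 2.2.1 and HTSeq 0.12.4, with build mm9; their roles, and the annotation, stand as not given in the sources used here. What the authors deposited is 1 table with DESeq2's column names, per the file headers: the authors' mean normalized count (a signal value), log2 fold change, its standard error and Wald statistic (scores), p-value and Benjamini-Hochberg adjusted p-value. It holds no values per sample, so depth per sample is unknown and no test was refitted; there were 0 unused per-sample columns. Precision follows the mean count, and genes with means of less than 8 have no adjusted p.

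A gene counted as called at an adjusted p below 0.05 over all 12069 genes. Folds are powers of 2, intervals cover 95% under a normal distribution, and levels implied per group were solved from the mean and the fold, taking both groups to weigh equally. Every gene found is named, with fuller statistics for called genes and the 4 smallest p-values per step; of the further lists, called genes and the 2 smallest p-values per list. Genes and lists were chosen with earlier results of these data known. Transcript lengths came from GENCODE M21 and promoter windows and gene order from RefSeq, both of a later build (GRCm38) matched by symbol. Scripts (Python 3.11.15, pandas 2.3.3, scipy 1.17.1) were tested on simulated fold changes. The settings varied were the threshold, a minimum fold, the filter on low means, Holm in place of Benjamini-Hochberg, centring, the t in place of the normal distribution, a length and GC trend, and transcript length.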

Additional observations from a re-analysis of the deposited data

How the results depend on the processing

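The number of sterol genes called, 1 of 37, was the same with a minimum change of 1.5 times, with no filter on low means and with means of at least 50. It rose to 2, Scap and Apoc1, at a threshold of 0.1 and with centring on genes with means of at least 500. It fell to 0 at a threshold of 0.01, under Holm adjustment, with centring on ribosomal protein genes, with a t distribution of 2 degrees of freedom, and with a length and GC trend removed; the gene lost or gained was of the regulators and uptake step each time. The adjusted p of Apoc1 ran from 0.0273 to 1 over 11 alternatives, with its log2 fold change between 0.55 and 0.69, and it was called under 6. Of those 6, 1 was not a planned setting, namely centring on the median of the synthesis enzymes (log2 fold change 0.65). With 2 degrees of freedom 0 of all genes passed, so that setting says nothing about single genes. The further pathway genes, 2 called, became 1 with a minimum change, 0 under Holm adjustment and the t distribution, and 4 with ribosomal centring. Genes called over the whole table, 239, became 109 and 395 at thresholds of 0.01 and 0.1, 49 under Holm, 477 with ribosomal centring and 0 with the t distribution. Mvd turned below 0, to -0.0308 with ribosomal centring and to -0.0273 with the length and GC trend removed. The median level per kb was 102 with the longest transcript and 249 with the median length, and CCAAT was in 100% of synthesis genes but 81.2% of their windows. Except where a setting itself tests fewer genes or a stricter threshold, the cause was not tested. Counts of calls in the mevalonate, sterol and transport steps stayed at 0 under every setting run; the oxysterol-forming enzymes had an adjusted p only without the filter on low means, so their count of 0 says nothing about stability. No paired analysis was possible because the table holds no values per sample; for the same reason no replicate was left out and edgeR was not run.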
